A study of Mus musculus with 6 samples.

Results

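The genes described here encode proteins of the synaptic vesicle in corticothalamic projection neurons, which send axons from the cortex to the thalamus. They are the vesicular glutamate transporter genes Slc17a6 (VGLUT2) and Slc17a7 (VGLUT1), the synapsin genes Syn1 and Syn2, the vesicle membrane protein genes Syp, Sv2a, Sv2b and Syngr1, the vesicle GTPase gene Rab3a and its effector gene Rph3a. Every probe set annotated to exactly 1 of these symbols was taken, which gave 22 of the 45101 probe sets on the array. All 10 genes had at least 1 such probe set, out of 18193 genes with one. The study collected 6 arrays of wild-type C57BL/6 mouse neurons, with 2 arrays at each of 3 stages and no control group. Neurons were labelled by injecting green fluorescent microspheres into the thalamus at E17.5, P1 and P4, and were sorted by fluorescence from cortex taken at E18.5 (written E18 here, after the sample names), at P3 and at P6. Labelling ran for a shorter time before E18 than before either postnatal collection, so in comparisons with E18 its length and the stage cannot be told apart.

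A synaptic vesicle is filled with glutamate by a vesicular transporter, driven by the gradient that a proton ATPase sets up. It is tethered to other vesicles by synapsins, guided to the membrane by Rab3 and its effectors, fused, and retrieved by endocytosis. In the rodent forebrain VGLUT2 is the main transporter of thalamic and many subcortical neurons and VGLUT1 that of mature cortical pyramidal neurons, and cortical neurons are known to express more VGLUT2 early in life than later. Synaptophysin (Syp) and synaptogyrin (Syngr1) are related vesicle proteins that cross the membrane several times, and the SV2 proteins (Sv2a, Sv2b) are transporter-like vesicle glycoproteins. Rabphilin (Rph3a) binds Rab3 in its GTP-bound form.

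All values are log2 expression values as deposited, where 1 unit is a doubling of signal. Where a gene had several probe sets, the one of highest mean stands for it, and changes were tested with limma over 13645 genes. A change is said to have passed the test at an adjusted p (Benjamini-Hochberg) below 0.05. Nothing in the labels ties the 2 arrays of a stage to different mice or different sorts. The p-values thus reflect the spread between these arrays alone, and that spread may be technical. In these sorted pools, fewer neurons and less RNA per neuron cannot be told apart. The E18 arrays were much closer to each other than the others, the SD of the log2 differences between replicates being 0.127 there, 0.573 at P3 and 0.457 at P6. Marker genes of corticothalamic neurons (Tbr1, Tle4, Foxp2, Ntsr1, Syt6, Crym, Zfpm2 and Sox5) were not below the lower quartile on both arrays of any stage. Of these, 8 of 8 rose by P3 and by P6, where 15.5% and 14.8% of all genes tested rose. Of the 11 proliferation and progenitor markers measured and tested, 10 fell by P3, where 25.7% of all genes fell. The summed linear signal of the 11 went from between 55320 and 56340 at E18 to between 1159 and 1415 at P3 and between 1280 and 1303 at P6. Astrocyte markers summed to between 20730 and 20910 at E18, to 1538 and 1553 at P3, and to 2413 and 6235 at P6, and microglia markers to 7191 and 7221, then 1079 and 2350, then 1816 and 5879. The part of these shifts in the changes given below was not tested.

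Promoter windows of Slc17a6, Slc17a7 and Syn1 are shown first. Their part in the changes given below was not tested. Each window runs from 250 bases before the annotated start site to 50 bases after it, in RefSeq's GRCm38.p6, and is written 5′ to 3′ on the strand of the gene. RefSeq held 18 such windows for the 10 genes. Capitals mark matches to motifs searched on both strands: the cyclic AMP response element TGACGTCA, the left arm TTCAGCACC of the RE1 element that the repressor REST binds, and the GC box GGGCGG, which reads as its reverse complement where it lies on the other strand.
Slc17a6, chr7:51621580-51621879, plus strand: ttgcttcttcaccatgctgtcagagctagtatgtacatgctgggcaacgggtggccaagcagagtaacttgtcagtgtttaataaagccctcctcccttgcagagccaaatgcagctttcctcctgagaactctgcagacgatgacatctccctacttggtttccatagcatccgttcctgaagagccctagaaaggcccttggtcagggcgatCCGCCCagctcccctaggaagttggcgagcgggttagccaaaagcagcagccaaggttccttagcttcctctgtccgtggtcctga
Slc17a7, chr7:45163671-45163970, plus strand: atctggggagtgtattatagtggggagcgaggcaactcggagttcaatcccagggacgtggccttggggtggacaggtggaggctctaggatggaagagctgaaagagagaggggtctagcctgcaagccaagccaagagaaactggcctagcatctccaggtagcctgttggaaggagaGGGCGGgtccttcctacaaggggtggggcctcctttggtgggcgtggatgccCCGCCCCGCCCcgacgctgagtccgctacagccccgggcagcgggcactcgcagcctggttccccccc
Syn1, chrX:20920869-20921168, minus strand: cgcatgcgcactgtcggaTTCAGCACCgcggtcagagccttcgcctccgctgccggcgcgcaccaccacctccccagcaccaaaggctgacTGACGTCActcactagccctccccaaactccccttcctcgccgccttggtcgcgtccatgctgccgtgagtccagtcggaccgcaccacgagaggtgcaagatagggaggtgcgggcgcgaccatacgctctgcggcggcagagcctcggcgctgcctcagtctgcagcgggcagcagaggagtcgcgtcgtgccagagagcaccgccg

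Syn1 was the only gene of the 10 with the RE1 arm, 232 bases before its start site, and the only one with the full cyclic AMP element, 159 bases before it. Each was in 1 of the 18 windows of these genes. Of all 32851 windows of this length, 0.371% held the RE1 arm and 1.79% the full element. The GC box was in windows of the 9 other genes. By single windows it was in 9 of the 18, and in 35.7% of all windows. Slc17a6 had 1 GC box, 36 bases before its start, and the shown window of Slc17a7 had 3, of which the pair nearest the start site share a base. The other strings searched were the 5-letter TGACG, which lies inside the full element and was found for Slc17a6 (in its other window), Syn1 and Rab3a and in 20.8% of all windows, TATAAA (Sv2b, 13.6% of windows) and the E box CAGCTG (Sv2a, Rab3a and Rph3a, 16.3%). A match describes the letters only.

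Most vesicle genes were higher after birth. Between E18 and P3, 7 of the 10 rose, 1 fell and 2 did not pass the test, where 15.5% of all genes tested rose and 25.7% fell. Between E18 and P6, 8 rose and 1 fell, against 14.8% and 16.9% of all genes. By single probe sets, 9 of the 20 tested rose and 3 fell by P3 (12.9% and 21.2% of all probe sets), and 13 rose and 2 fell by P6 (11.5% and 14.9%). Of all genes called by P3, 37.6% were rises, and 50.6% after quantile normalization. The median change of the 10 genes was 1.2 by P3 and 2.08 by P6, and that of all genes tested was -0.13 and 0.08. The list was put together with earlier results of these data known, so these counts are a description. Signs of RNA quality moved with stage: the excess of 3′ over 5′ signal was 0.557 and 0.584 at E18 and between 0.818 and 1.76 on the postnatal arrays for Actb, and 1.44 to 1.48 and then 1.68 to 2.55 for Gapdh. Their part in these changes was not tested. By P3, the calls rest in part on the close E18 arrays: with these averaged to 1 sample 4 genes passed the test (3 rises and 1 fall), without E18 replicate 1 also 4 and without E18 replicate 2 it was 3.

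**Figure D1:**
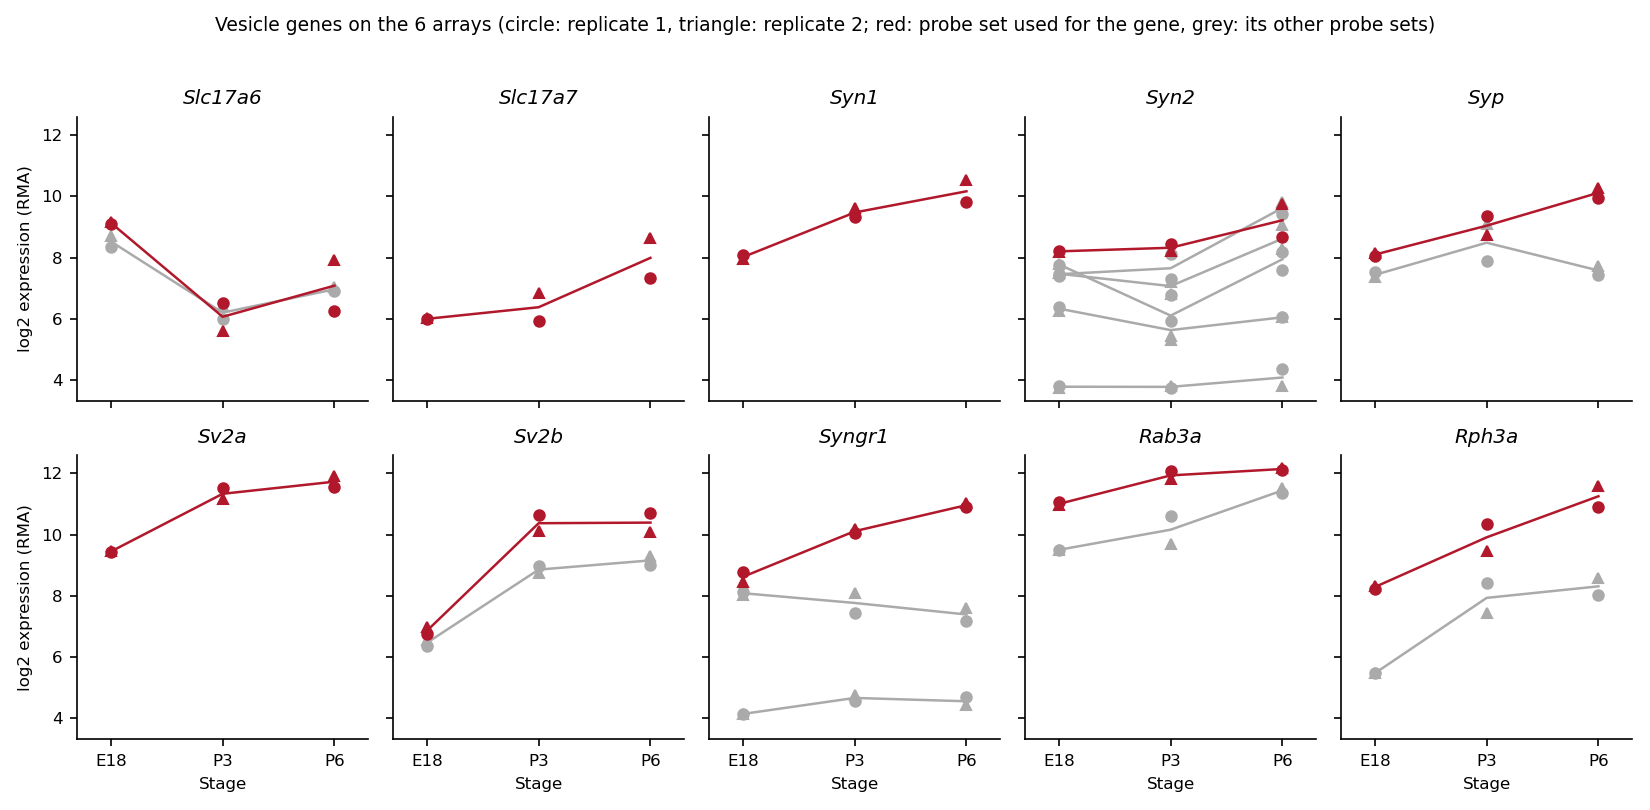
Log2 expression of the 10 vesicle genes (vertical axis) at E18, P3 and P6 (horizontal axis), with 1 panel per gene, a circle for replicate 1, a triangle for replicate 2 and lines joining stage means; red marks the probe set used for the gene and grey its other probe sets. Slc17a6 is highest at E18 on both of its probe sets, while the red points of the other genes are higher at P6 than at E18.

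From E18 to P6 the vesicular glutamate transporter genes moved in opposite directions. From P3 to P6 the means of both were higher, Slc17a6 by 1.015 and Slc17a7 by 1.611, without passing the test. Slc17a6 stood at 9.10 and 9.18 on the E18 arrays, at 6.53 and 5.61 at P3, and at 6.26 and 7.91 at P6. Both E18 arrays were above all 4 postnatal arrays, and the P3 and P6 arrays overlapped. Slc17a6 was 8.37-fold lower at P3 than at E18 (log2 change -3.06 ± 0.53 SE, n = 2 arrays per stage, limma adjusted p = 0.00411). At P6 it was 4.14-fold lower than at E18 (-2.05 ± 0.53, limma adjusted p = 0.0228). Without P6 replicate 1 the change by P6 was -1.22 and did not pass the test (adjusted p = 0.109). With the level of the hybridization controls as a covariate neither change passed, at -1.93 by P3 (limma adjusted p = 0.0639) and -1.03 by P6 (adjusted p = 0.222). These added control transcripts averaged 9.58 and 9.25 on the E18 arrays, 11.7 and 11.6 at P3 and then 13.0 and 9.85 at P6.

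The other Slc17a6 probe set, annotated to a RefSeq transcript, gave the same order of stages with less spread at P3 and P6. It read 8.35 and 8.70 on the E18 arrays, 5.99 and 6.41 at P3 and then 6.91 and 7.03 at P6. The fall was 5.01-fold by P3 and 2.95-fold by P6, with limma adjusted p of 7.68e-04 and 0.00388 among the 26209 probe sets tested. Its P6 arrays lay close together and above both P3 arrays, by a mean of 0.76, a difference that did not pass the test (limma adjusted p = 0.208).

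Slc17a7 was dim at E18 and had risen by P6. It read 5.99 and 6.02 at E18, close to the lowest gene mean that was tested (5.97), then 5.92 and 6.84 at P3, and it reached 7.34 and 8.65 at P6. The P3 arrays overlapped the E18 arrays, and both P6 arrays were above all others. By P3 the change was 0.38 ± 0.45 (SE, limma adjusted p = 0.51), and it turned to -0.08 without P3 replicate 2. By P6 Slc17a7 was 3.97-fold higher than at E18 (1.99 ± 0.45, limma adjusted p = 0.0132). Without P6 replicate 2, the higher P6 array, the change was 1.33 and did not pass the test (adjusted p = 0.0695), and with the 18S ribosomal RNA level as a covariate it was 2.11 with an adjusted p of 0.0507. A signal this dim at E18 can understate the fold. The gene has 1 probe set on this array that met the rule.

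Within each array, the signal of Slc17a7 relative to that of Slc17a6 was higher at both postnatal stages than at E18. The change in Slc17a7 minus Slc17a6 from E18 was 3.44 log2 units at P3, a 10.9-fold shift, and 4.04 at P6, a 16.4-fold shift. The difference was -3.11 and -3.16 on the E18 arrays, -0.61 and 1.23 at P3 and then 1.08 and 0.74 at P6. Different probe sets set no common scale, so only its change between stages can be read, and by that measure all 4 postnatal arrays stood above both E18 arrays. An exact permutation test over arrays of the 4 postnatal against the 2 E18 arrays gave p = 0.0667 (2-sided), the smallest that 15 splits allow. With 2 arrays against 2 no p below 0.333 can be reached, and that was the exact permutation p of each comparison with E18. With the other Slc17a6 probe set the shifts were 2.70 at P3 and 3.55 at P6. Between P3 and P6 the difference moved by 0.60 (exact permutation p = 1), and by -0.32 without P3 replicate 1. In the means, the shift at P3 was made up mostly of the lower Slc17a6 signal (-3.06 against 0.38 for Slc17a7), and that at P6 about equally of both (-2.05 and 1.99).

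**Figure D2:**
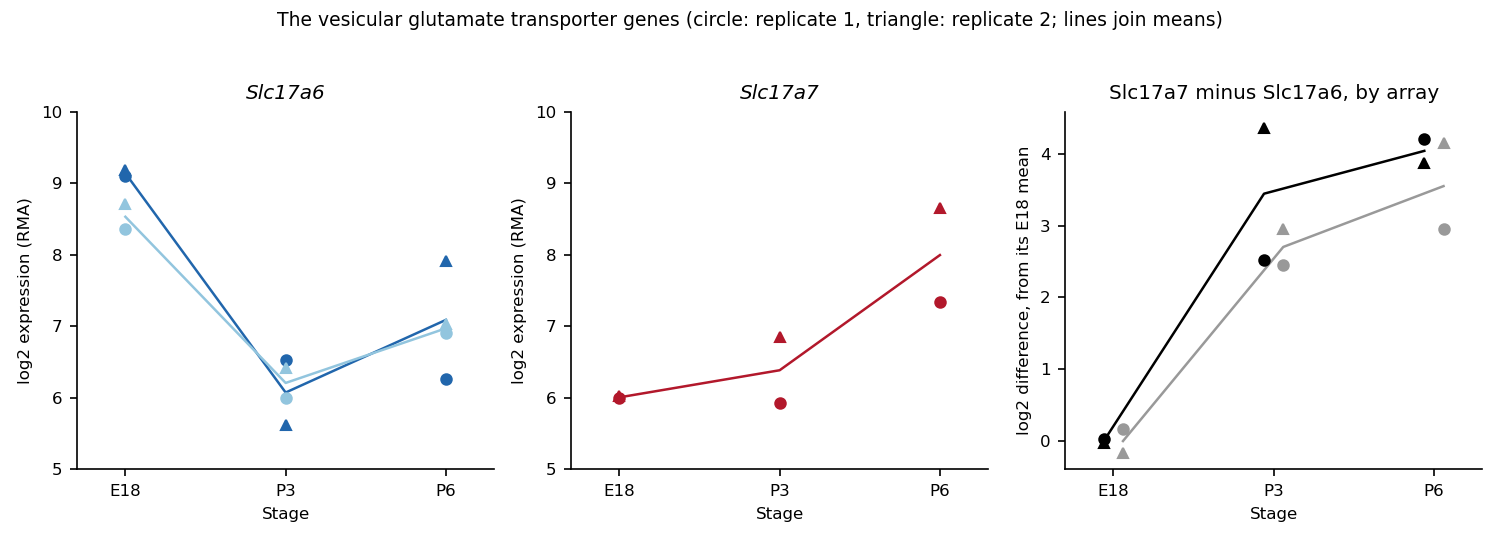
Log2 expression of Slc17a6 (left, darker blue for the probe set used and lighter blue for the other) and Slc17a7 (middle) by stage, and the within-array difference Slc17a7 minus Slc17a6 set to 0 at its E18 mean (right, black with the Slc17a6 probe set used, grey with the other); circles and triangles are replicates 1 and 2 and lines join stage means. The right panel shows shifts of 3.44 at P3 and 4.04 at P6 in black, and of 2.70 and 3.55 in grey.

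Other neurons that carry VGLUT2 or mark another transmitter gave these readings beside the transporter genes. Of 8 thalamic markers, Gbx2 and Prox1 were below the lower quartile of every array, and the list summed to 1073 and 1082 on the E18 arrays, 1137 and 1305 at P3 and then 1229 and 1720 at P6. Of its 5 tested genes 1 rose and 1 fell in each comparison with E18. Among all genes 15.5% rose and 25.7% fell by P3, and 14.8% and 16.9% by P6. By P3 the riser was Tcf7l2 (0.98, limma adjusted p = 0.0499), which stood at -0.06 by P6. By P6 the riser was Slc6a4, a serotonin transporter gene expressed by developing thalamic neurons, at 3.56 (limma adjusted p = 0.00507). Slc6a4 read 5.75 and 5.83 on the E18 arrays, below the lowest gene mean tested (5.97). At P6 it read 8.87 and 9.83 and was the brightest gene of the list, so it carried much of the P6 sums. Rgs16 fell by P6 (-1.21, limma adjusted p = 0.00159). Of 8 Cajal-Retzius markers, a layer 1 cell type rich in VGLUT2, Lhx5 was below the lower quartile of every array and Lhx1 of both E18 and both P6 arrays. Ndnf and Nhlh2 were below it at P3 and P6 but not at E18: their means went from 7.25 to 4.81 and from 6.24 to 4.83 by P3, and both were too dim over all arrays to test. Calb2, which is on both lists, fell by P3 (-1.11, limma adjusted p = 0.0202) and stood at -0.55 by P6 (adjusted p = 0.187). The other tested Cajal-Retzius genes, Reln, Trp73 and Cacna2d2, did not pass in either comparison with E18. They differed by -0.66, 0.001 and 0.38 by P3. The Cajal-Retzius list summed to 2161 and 2317 on the E18 arrays, 1837 and 1676 at P3 and then 2063 and 1455 at P6. Single genes of the marker lists are named by choice made after their values were seen. Slc32a1, the vesicular transporter of inhibitory neurons, fell 3.90-fold by P3 and 5.46-fold by P6 (limma adjusted p = 6.48e-04 and 2.13e-04), from 8.003 and 8.107 at E18 to 5.56 and 5.66 at P6. The interneuron genes Dlx1 and Lhx6 fell as well. Of the 7 tested markers of GABA neurons 3 fell and 1 rose by P6, where 16.9% of all genes fell and 14.8% rose. The riser was Npy (1.19, limma adjusted p = 0.0123). Gad1 and Gad2 read between 5.86 and 6.79 on all arrays, and differed by 0.05 and 0.21 by P6 without passing. The GABA list summed to 2006 and 2060 on the E18 arrays, 2090 and 2101 at P3 and then 2123 and 1482 at P6. Npy made up most of each postnatal sum, so the sums do not follow the other genes of the list. It read 9.09 on both E18 arrays, 10.62 and 10.58 at P3 and then 10.55 and 10.01 at P6. The part of these cells in the change of Slc17a6 was not tested.

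By the Pearson correlation over the 6 arrays, the 5 tested genes most like Slc17a6 were Nxpe4, Eefsec, Lsm2, Rpp25l and Rab11fip3 (r from 0.9987 to 0.9992). Their changes from E18 to P6 lay between -1.15 and -0.77, against -2.05 for Slc17a6. Those most like Slc17a7 were Nme5, Cnnm2, Tmem198, Rasip1 and Cacnb2 (r from 0.9755 to 0.9948), with changes by P6 of 0.30 to 1.61. With 6 arrays in 3 stages and the best of 13645 genes taken, these values describe these arrays only.

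The synapsins, which tether vesicles to each other and to actin, were read on 1 probe set for Syn1 and 6 for Syn2. Syn1 read 8.07 and 7.96 on the E18 arrays, 9.31 and 9.64 at P3 and then 9.81 and 10.52 at P6, so the arrays of the 3 stages did not overlap. It rose 2.75-fold by P3 (1.46 ± 0.30 SE, limma adjusted p = 0.00907) and 4.43-fold by P6 (2.15 ± 0.30, limma adjusted p = 0.00171). The call by P3 was lost with the E18 arrays averaged (limma adjusted p = 0.0669). Syn2 read 8.22 and 8.19 on the E18 arrays, 8.43 and 8.21 at P3 and then 8.68 and 9.76 at P6. Its change was 0.12 ± 0.36 by P3 (limma adjusted p = 0.803) and 1.02 ± 0.36 by P6 (adjusted p = 0.069), and neither passed the test. The difference between the synapsin genes was not tested. Without P6 replicate 1 the change of Syn2 by P6 was 1.55 and passed (limma adjusted p = 0.014), and without P6 replicate 2 it was 0.48.

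The probe sets of Syn2 disagreed on the change by P3. The gene had 6, of which 5 were bright enough to be tested. From E18 to P3 their changes were 0.12, 0.20, -0.40, -1.67 and -0.70, and the one at -1.67 fell by the test (limma adjusted p = 0.0308). From P3 to P6 all 5 were higher, by 0.42 to 1.97, and none passed the test. From E18 to P6 the probe sets at 2.16 and 1.14 rose (limma adjusted p = 0.00438 and 0.0467), and the others stood at 1.02, 0.17 and -0.28. With the mean of all Syn2 probe sets the change by P3 was -0.41 (adjusted p = 0.185) and that by P6 was 0.75 (adjusted p = 0.0456). A higher mean at P6 than at P3 was common to the tested Syn2 probe sets, while the direction from E18 to P3 was not.

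Of the SV2 genes, Sv2b had the largest rise of the 10 genes. It read 6.75 and 6.97 on the E18 arrays, 10.64 and 10.10 at P3 and then 10.71 and 10.07 at P6. It was 11.4-fold higher at P3 (3.52 ± 0.32 SE, limma adjusted p = 2.26e-04) and 11.5-fold higher at P6 than at E18 (limma adjusted p = 2.13e-04). Its other probe set rose 5.25-fold and 6.46-fold (limma adjusted p = 6.31e-04 and 3.83e-04). Of the rise of Sv2b by P6, 99.7% was present at P3, and the change from P3 to P6 was 0.01 ± 0.32. Sv2a, the isoform found at most synapses, read 9.44 and 9.45 on the E18 arrays, 11.51 and 11.15 at P3 and then 11.55 and 11.90 at P6. It rose 3.69-fold by P3 and 4.86-fold by P6 (limma adjusted p = 0.00124 and 4.76e-04). Sv2a and Sv2b passed the test in both comparisons with E18 under each of the 18 alternatives run.

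Syp and Syngr1 were higher at both postnatal stages than at E18. Syp read 8.05 and 8.15 on the E18 arrays, 9.35 and 8.73 at P3 and then 9.95 and 10.28 at P6, with no overlap between stages. It rose 1.92-fold by P3 (0.94 ± 0.29 SE, limma adjusted p = 0.0364) and 4.05-fold by P6 (2.02 ± 0.29, limma adjusted p = 0.0018). The call by P3 held in 8 of 18 alternatives, and the change was 0.63 without P3 replicate 1. The other Syp probe set read 7.52 and 7.36 on the E18 arrays, 7.88 and 9.09 at P3 and then 7.42 and 7.74 at P6, so it differed by 0.14 between E18 and P6 (limma adjusted p = 0.807). Its name ends in x_at, which marks probes that can also bind other transcripts. Averaged over both probe sets, Syp was higher than at E18 by 1.08 at P6 (limma adjusted p = 0.00821), and the difference between P3 and P6 was 0.08.

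Syngr1 read 8.79 and 8.46 on the E18 arrays, 10.05 and 10.17 at P3 and then 10.89 and 11.03 at P6. It rose 2.80-fold by P3 and 5.06-fold by P6 (limma adjusted p = 0.00345 and 4.12e-04). Another Syngr1 probe set, annotated to a RefSeq transcript, read 8.14 and 8.03 on the E18 arrays, 7.43 and 8.11 at P3 and then 7.17 and 7.61 at P6. Its P6 arrays were below both E18 arrays, a change of -0.69 ± 0.29 by P6 (limma adjusted p = 0.131). The third Syngr1 probe set lay between 4.14 and 4.78 and was too dim to test. The mean of the 3 was higher by 0.56 at P3 and 0.69 at P6 (limma adjusted p = 0.0396 and 0.0231), and it includes the dim probe set. Both the size and the direction of the Syngr1 change thus differed between its probe sets.

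Rab3a, the main Rab3 GTPase of brain synapses, had the smallest rise among the genes that passed the test by P6. It read 11.05 and 10.95 on the E18 arrays, 12.06 and 11.80 at P3 and then 12.11 and 12.17 at P6. It rose 1.90-fold by P3 and 2.20-fold by P6 (limma adjusted p = 0.0101 and 0.00437). The calls were lost with the E18 arrays averaged (limma adjusted p = 0.111 and 0.0577). The name of this probe set ends in x_at, as does that of the other Syp probe set, so its probes can also bind other transcripts. The other Rab3a probe set, annotated to a RefSeq transcript, read 9.51 and 9.49 on the E18 arrays, 10.62 and 9.70 at P3 and then 11.35 and 11.53 at P6. That was a 3.84-fold rise by P6 (limma adjusted p = 0.00612), while its change by P3 did not pass the test (limma adjusted p = 0.156). On that probe set the difference of 1.28 between P3 and P6 was larger than that of 0.66 between E18 and P3, the reverse of the order on the brighter one.

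The Rab3 effector gene Rph3a read 8.24 and 8.34 on the E18 arrays, 10.35 and 9.47 at P3 and then 10.90 and 11.60 at P6. It rose 3.08-fold by P3 (limma adjusted p = 0.013) and 7.79-fold by P6 (adjusted p = 9.46e-04), the second largest rise of the 10 genes. The arrays of the 3 stages did not overlap. Its other probe set went from 5.48 and 5.47 to 8.43 and 7.44 and then to 8.02 and 8.60, a 5.50-fold rise by P3 and a 7.15-fold rise by P6 (limma adjusted p = 0.00343 and 0.00187). The E18 values of that probe set were below the lowest mean of a tested probe set (5.54). It thus passed the filter on dim probe sets only through its postnatal arrays, and is no independent support for the rise. With the E18 arrays averaged the rise of Rph3a by P3 was not called (limma adjusted p = 0.0563).

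Between P3 and P6 none of the 10 genes passed the test, and neither did any of the 13645 genes (0%). At an unadjusted p under 0.05 limma had 5 of the 10 genes and 19.8% of all genes. All 10 were higher at P6 on the means, by 0.01 (Sv2b) to 1.61 (Slc17a7), though Sv2b and Rab3a were lower after quantile normalization, with a median of 0.88 against 0.17 for all genes. The arrays did not overlap for 8 of the 10, where 30.6% of all genes were higher without overlap; those of Slc17a6 and Sv2b overlapped. The smallest adjusted p among the 10 was that of Syp (1.08 ± 0.29 SE, limma adjusted p = 0.141). Without P3 replicate 1 the test called 3 of them higher at P6, Syp by 1.39, Rph3a by 1.78 and Syngr1 by 0.80, and it then called 3922 of all genes. P3 replicate 2, the P3 array that remains there, had 18S ribosomal RNA at 14.2, against 11.8 on P3 replicate 1. P6 replicates 1 and 2 had it at 13.9 and 11.3. The measures of 3′ over 5′ signal did not order the P3 arrays alike: replicate 2 was at 1.76 and replicate 1 at 1.19 for Actb, and they were at 1.68 and 2.55 for Gapdh. The part of RNA quality in these differences was not tested.

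**Figure D3:**
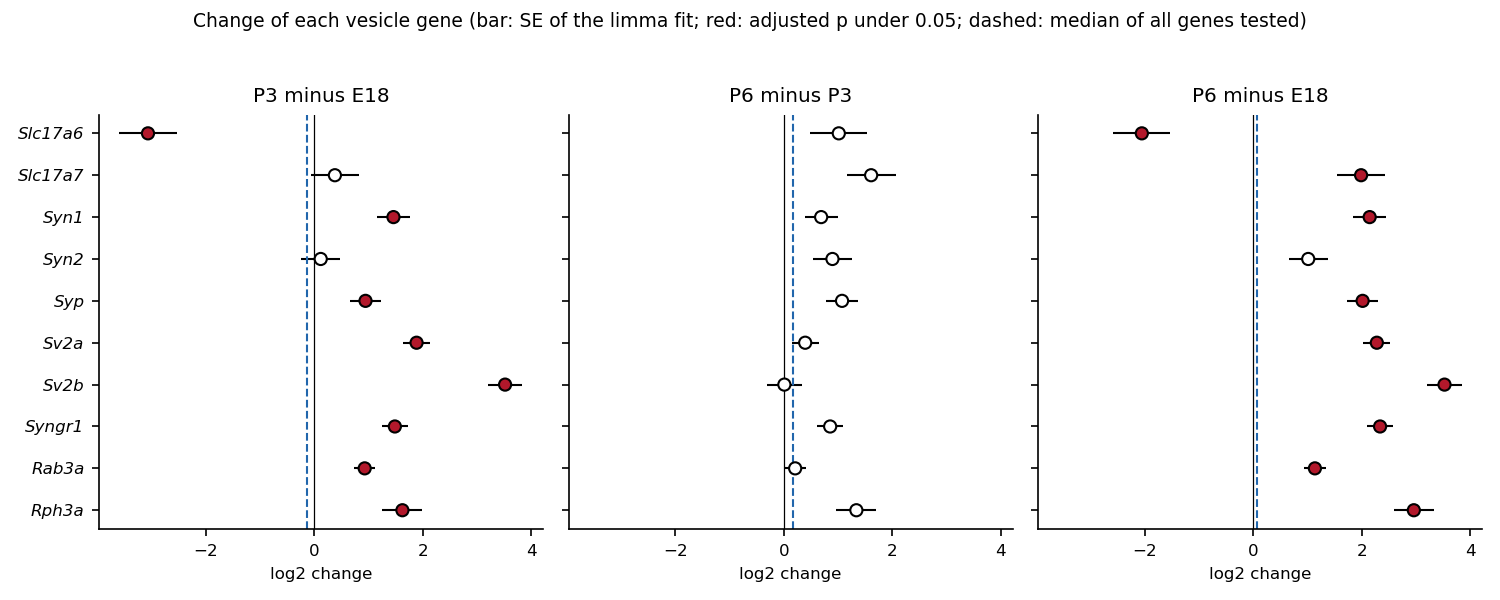
Log2 change (horizontal axis) of each vesicle gene (vertical axis) between stages, with bars for the SE of the limma fit, filled red where the adjusted p is under 0.05 and a dashed line at the median of all genes tested. Slc17a6 is the only gene to the left of 0 in comparisons with E18, and no point is filled in the middle panel.

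On the probe sets used, the share of the mean change from E18 to P6 that was present at P3 was 99.7% for Sv2b, 82.6% for Sv2a, 81.5% for Rab3a, 67.9% for Syn1, 63.4% for Syngr1, 54.8% for Rph3a and 46.7% for Syp. It was 19.0% for Slc17a7 and 11.6% for Syn2. For Slc17a6, whose mean fall was larger at P3 than at P6, it was 150%. Whether these shares differ between genes was not tested, and the order depends on the probe set. For Rab3a the other probe set changed more after P3, as described above. For Rph3a the other probe set had 2.46 of its 2.84 by P3, and the mean of the Syp probe sets had 0.996 of its 1.080. Syn2 and Slc17a7 were also the genes with the widest gaps between the P6 arrays apart from Slc17a6: replicate 2 was higher than replicate 1 by 1.08 and 1.31, against 1.65 for Slc17a6 and 0.71 or less in size for the others. P6 replicates 1 and 2 also differed in 18S ribosomal RNA (13.9 and 11.3) and hybridization controls (13.0 and 9.85). Microglia markers summed to 1816 and 5879 on them, and astrocyte markers to 2413 and 6235. The part of these differences in the gaps was not tested.

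Across the 6 arrays, Pearson's r between genes other than Slc17a6 ranged from 0.43 (Sv2b with Syn2) upwards. It was 0.99 between Syp and Rph3a, 0.98 between Syn1 and Syngr1 and 0.97 between Sv2b and Rab3a, while Rab3a had 0.62 with Syn2 and 0.64 with Slc17a7. Slc17a7 had its highest r with Syn2 (0.91) and its lowest among these genes with Sv2b (0.50). Slc17a6 had negative r with every other gene, from -0.88 with Sv2b to -0.01 with Syn2. These are values over 6 arrays that share stage and library, and are given as a description.

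Close relatives of these genes did not all follow them. Syn3, the third synapsin gene, rose 1.91-fold by P3 and 1.88-fold by P6 (limma adjusted p = 0.0194 and 0.0242). Syngr3, a neuronal synaptogyrin, rose 2.42-fold and 5.71-fold (adjusted p = 0.0189 and 0.00106 by limma), while Syngr2, the form common outside neurons, fell 2.32-fold and 1.73-fold (limma adjusted p = 0.00197 and 0.0123). Synpr, a relative of Syp, fell 1.80-fold by P6 (limma adjusted p = 0.0469) and differed by -0.72 by P3 (adjusted p = 0.0655). Sypl, a synaptophysin-like gene named here after its values were seen, fell 8.88-fold by P3 and 5.68-fold by P6 (limma adjusted p = 0.00263 and 0.00716), and Sypl2 did not pass in either comparison (adjusted p = 0.447 and 0.176). Sv2c stayed between 5.31 and 5.73 on all arrays and was too dim to test, and Slc17a8 was not analysed here.

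Among the Rab3 genes, Rab3b rose 3.06-fold by P3 and 7.21-fold by P6 (limma adjusted p = 0.00841 and 6.58e-04). Rab3c rose 2.90-fold by P3 (limma adjusted p = 0.00375) and stood 0.65 above E18 at P6 (adjusted p = 0.0967). Rab3d differed by 0.45 and 0.77 and did not pass (adjusted p = 0.49 and 0.285 by limma). Doc2a and Doc2b, calcium sensors with the same type of C2 domains as Rph3a, rose 10.2-fold and 8.07-fold by P3 and 12.8-fold and 9.42-fold by P6 (limma adjusted p at most 6.65e-04). Rph3al, which has the Rab-binding part of rabphilin without those domains, changed by 0.56 and 0.18 without passing. In the Rab3 list of 14 tested genes, 5 rose by P3 and 4 by P6, where 15.5% and 14.8% of all genes rose. In this list 0 fell in either comparison, against 25.7% and 16.9% of all genes. Rabac1, a prenylated Rab acceptor, differed by -0.52 by P3 and 0.69 by P6 without passing. The active zone gene Rims1, whose product binds Rab3, rose 5.33-fold by P3 and 5.68-fold by P6.

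Among 15 other tested genes of vesicle membrane proteins, transmitter transporters and release factors, 5 rose and 3 fell by P3 (15.5% and 25.7% of all genes), and 7 rose and 4 fell by P6 (14.8% and 16.9%). Cplx1, which clamps the fusion complex, rose 4.06-fold by P3 and 5.32-fold by P6 (limma adjusted p = 3.52e-04 and 1.48e-04). Svop, an SV2-related gene, rose 3.53-fold by P6 and Scamp5 2.80-fold (limma adjusted p = 0.00325 and 0.0166). The median of this list was 0.41 by P3 and 0.76 by P6.

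The vesicle proton pump supplies the gradient that drives glutamate uptake. Of its 16 tested genes, 1 rose and 1 fell by P3 (15.5% and 25.7% of all genes), and 6 rose and 1 fell by P6 (14.8% and 16.9%), with medians of 0.21 and 0.70. Atp6v1g2, the neuronal G subunit, read 8.07 and 8.02 on the E18 arrays, 9.15 and 8.43 at P3 and then 10.01 and 10.35 at P6, a 4.41-fold rise by P6 (limma adjusted p = 0.00171). Atp6v0a1 rose 2.81-fold by P6 (limma adjusted p = 0.00643), whereas the general subunit gene Atp6v0e fell 3.63-fold by P3 and 2.65-fold by P6 (adjusted p = 0.0031 and 0.0103). Atp6ap2, an accessory subunit, rose by 0.59 by P3 (limma adjusted p = 0.0414), and Atp6v0e2 did not pass in any comparison. Counts for this list depended on the settings: they ranged from 0 to 9 calls by P3 and from 1 to 11 by P6 over the alternatives, with 9 and 10 after quantile normalization.

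Genes of vesicle retrieval include those for endocytosis and for uncoating of the vesicle. Of 22 tested, 9 rose and 1 fell by P3 (15.5% and 25.7% of all genes), and 13 rose and 0 fell by P6 (14.8% and 16.9% of all genes), with medians of 0.46 and 1.03. Dnajc6 (auxilin, which uncoats clathrin vesicles) rose 8.23-fold by P3 and 11-fold by P6. Sh3gl2 (endophilin A1) rose 7.14-fold and 8.95-fold and the clathrin adaptor gene Snap91 4.44-fold and 5.67-fold. The highest limma adjusted p among these 3 genes was 5.7e-04. The adaptor subunit gene Ap2s1 had the smallest p of the list between P3 and P6, at 1.02 ± 0.22, and did not pass (limma adjusted p = 0.119). Bin1 (amphiphysin 2) rose 2.28-fold by P6 (limma adjusted p = 0.0263), and Ap2a1, at 0.53, did not pass.

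Of 6 tested genes that supply or take up glutamate, 1 rose and 2 fell by P3, shares near the 15.5% and 25.7% of all genes. By P6, 1 rose and 0 fell, where 14.8% and 16.9% of all genes did. Slc1a1, the neuronal glutamate transporter of the cell surface, rose 4.46-fold by P3 and 5.73-fold by P6 (limma adjusted p = 4.84e-04 and 2.2e-04). Glud1, the mitochondrial glutamate dehydrogenase, fell 3.03-fold by P3 (limma adjusted p = 0.00383) and stood 0.63 below E18 at P6 (adjusted p = 0.12). The amino acid transporter gene Slc38a2 fell 2.12-fold by P3 (limma adjusted p = 0.0176) and stood at -0.81 by P6 (adjusted p = 0.0574). The aspartate aminotransferase genes Got1 and Got2 did not pass in any comparison.

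**Figure D4:**
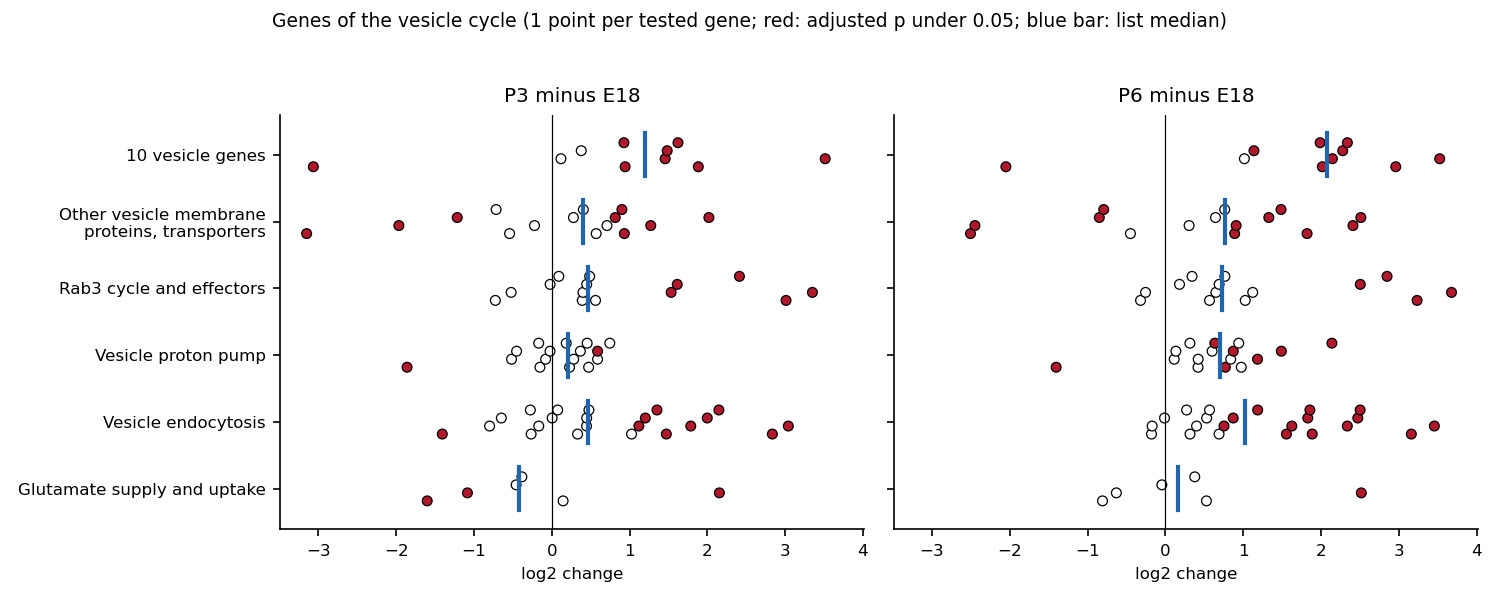
Log2 change from E18 to P3 (left) and to P6 (right) for each tested gene of 6 lists (vertical axis), with red points for adjusted p under 0.05 and blue bars for list medians. The 10 vesicle genes have medians of 1.2 and 2.08 and the other 5 lists lie lower, between -0.42 and 0.47 by P3 and between 0.17 and 1.03 by P6. Lists of marker genes are not drawn, and markers of neurons in general had medians of 1.55 and 1.67.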

How the data were processed

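Affymetrix arrays of amplified, biotin-labelled RNA were measured for 6 samples. The deposited log2 values per probe set came from RMA, which the authors ran (per the submitters' processing notes). Its version, and whether all arrays were run together, are not given in the sources used here. Array signals are relative, and 2 arrays per stage limit the precision. Gene symbols came from GEO's annotation of the platform: of the probe sets, 34945 had 1 symbol, 932 several, 9160 none and 64 were controls. Only the first were used. The brightest probe set on average stood for a gene, and genes in the lowest 25% by mean level were dropped. All 10 vesicle genes passed, and 20 of their 22 probe sets passed the same filter in a fit over 26209 probe sets.

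One limma model (version 3.58.1, R 4.3.3) held the 3 stage means of the 6 arrays (3 residual degrees of freedom, intensity trend, 2-sided, Benjamini-Hochberg). Errors are standard errors of that fit. The fit was also run on simulated data that had the same spread at all 3 stages for a gene. The arrays here differ in spread between stages, so that run does not show how the fit behaves on them. The members and the gene lists were chosen with earlier results of these data known. Named genes were all members, a list of their paralogs, and the 3 smallest p of each list and comparison, with 5 genes most correlated to each transporter gene. Lists were matched by symbol. Alternatives were quantile normalization, median centring, other filters on dim genes, the mean of probe sets, only the compared stages, averaged E18 arrays, no trend, array weights, control and 18S levels as covariates, the sample number as a block, and leaving out each array.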

Additional observations from a re-analysis of the deposited data

How the results depend on the processing

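All 10 genes kept their direction from E18 to P6 in the 18 alternatives (17 for Slc17a6 and Slc17a7, which are too dim for the filter that drops the lowest 50%), and 6 kept their call in each; the number called was 7 to 10 against 9. From E18 to P3, 8 genes were called, and 4 with the E18 arrays averaged, 4 with hybridization controls as a covariate, and 3 to 8 with 1 array left out; Sv2a and Sv2b kept their call in all. From P3 to P6, 0 were called, and 0 to 3 with 1 array left out. Directions turned for Syn2 by P3 with the mean of its probe sets (-0.41), for Slc17a7 by P3 without P3 replicate 2 (-0.079; 0.837 without P3 replicate 1), and from P3 to P6 for Sv2b and Rab3a with quantile normalization (-0.305 and -0.046) and for Sv2b without P3 replicate 2 (-0.258) or P6 replicate 1 (-0.308; at most 0.332 with 1 array left out). The cause was not tested. The shift of Slc17a7 against Slc17a6 lay between 2.53 and 4.36 by P3, 3.87 and 4.21 by P6, 3.54 and 4.15 for all postnatal arrays, and -0.32 and 1.51 from P3 to P6 with 1 array left out. Over all genes, 5629 were called by P3 and 2263 to 7871 in the alternatives, 4320 by P6 and 2338 to 6455, and 0 from P3 to P6, or 3922 without P3 replicate 1. Quantile normalization moved the median of all genes from -0.13 to 0.09. With the replicate block, 5201 genes were called by P3 and 4054 by P6, and Syp by P3 lost its call (adjusted p = 0.0535). The labels do not say that sample numbers pair the arrays, and the deviations of same-numbered arrays correlated at -0.201, 0.037 and -0.137. Signals near the low end of an array, such as Slc17a7 at E18, limit the folds that can be seen.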
